A study of Mus musculus with 12 samples.

Results

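The E2F transcription factors and the G1 cyclins set when a cell leaves G1 and begins to copy its DNA. The 10 genes described here are E2f1 to E2f5, the D cyclins Ccnd1, Ccnd2 and Ccnd3, and the E cyclins Ccne1 and Ccne2. They were taken by gene symbol from the platform annotation, which gives them 21 of the 45281 probes on the array. Of these probes 17 were detected on at least 3 of 12 arrays, and each of the 10 genes kept at least 1 such probe, so all 10 were among the 12379 genes tested.

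RNA came from tumors of the hindbrain choroid plexus (CP), the epithelium that secretes cerebrospinal fluid, and from wild-type CP. The tumor animals carried Math1-cre;Rosa26-NICD1, a genotype in which Cre made under the Math1 (Atoh1) promoter turns on the Notch1 intracellular domain from the Rosa26 locus, and the controls are labelled wild type. All animals were on the C57BL/6 background, and tissue was collected from newborns (P0) or from mice 21 days old (P21), 3 samples for each of the 4 groups. Every sample was a pool of tissue from several animals of its genotype; the number, sex and litter of those animals are not stated in the labels, and p-values measure the spread between pools, which may be partly technical. Atoh1 itself was detected on 0 arrays.

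In the textbook pathway, mitogens raise the D cyclins, which activate Cdk4 and Cdk6. These kinases begin to phosphorylate the retinoblastoma protein, the E cyclins with Cdk2 continue it, and the E2F factors held by that protein are released to switch on genes of DNA synthesis. E2f1, E2f2 and E2f3 are the activating E2Fs and are E2F targets themselves, as are the E cyclins. E2f4 and E2f5 act mainly as repressors in resting cells with the pocket proteins Rbl1 and Rbl2, and in multiciliated cells they join Gmnc or Mcidas to turn on centriole genes. Mice without E2f5 develop hydrocephalus with an overproducing CP.

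Promoter windows of 250 bases upstream of a RefSeq transcript start (GRCm38.p6) were held for 5 of the 10 genes (8 windows), namely E2f1, E2f2, E2f3, Ccnd3 and Ccne1. The windows below belong to an activator that rose in P0 tumors, to an activator that did not pass, and to an E cyclin, and they are shown because E2F genes and E cyclins are known E2F targets. Each is printed 5′ to 3′ on the gene's own strand, and the capitals in the E2f3 window mark E2F letters read on the opposite strand as TTTCCCGC.
E2f2, chr4:136172024-136172273, plus strand: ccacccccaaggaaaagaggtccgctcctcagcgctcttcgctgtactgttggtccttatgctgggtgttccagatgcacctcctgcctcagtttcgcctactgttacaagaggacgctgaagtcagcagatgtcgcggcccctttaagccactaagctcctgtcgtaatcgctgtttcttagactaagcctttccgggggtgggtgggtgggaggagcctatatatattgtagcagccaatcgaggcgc
E2f3, chr13:29986064-29986313, minus strand: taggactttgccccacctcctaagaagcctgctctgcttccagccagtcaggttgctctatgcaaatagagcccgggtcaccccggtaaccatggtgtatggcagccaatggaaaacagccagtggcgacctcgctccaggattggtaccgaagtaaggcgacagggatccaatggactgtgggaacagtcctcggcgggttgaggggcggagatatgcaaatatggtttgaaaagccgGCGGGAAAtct
Ccne1, chr7:38107491-38107740, minus strand: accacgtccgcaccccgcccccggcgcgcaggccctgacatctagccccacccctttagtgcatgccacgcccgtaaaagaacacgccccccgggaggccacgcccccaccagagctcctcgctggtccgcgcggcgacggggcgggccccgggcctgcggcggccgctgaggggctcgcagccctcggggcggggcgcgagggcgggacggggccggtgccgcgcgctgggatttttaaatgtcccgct
The letters searched on both strands were TTTCCCGC, TTTCGCGC, TTTGCCGC and TTTGGCGC. They occurred in 1 of the 8 windows of these genes, the E2f3 window shown, at -11 to -4 from the transcript start, and in 611 of 32851 windows of the same length over all genes (1.86%). The E2f1 window and the E2f2 window at chr4:136180532-136180781, neither printed, hold letters that read as protein-coding sequence. Both may lie inside the gene, so the lack of a match in them does not describe the promoter of E2f1 or E2f2. TGGGAA, the core letters bound by Rbpj, the DNA-binding partner of the Notch intracellular domain, occurred in the same E2f3 window at -70 to -65 and in 21.6% of all windows. A match describes the letters in the window and is not evidence of binding.

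The arrays had 19043 to 23632 detected probes and median raw signals of 134 to 179.9. The P0 and P21 arrays were on separate BeadChips, and effects of age and of BeadChip cannot be told apart. On each BeadChip the tumor arrays held positions A to C and the wild-type arrays D to F, so position and genotype cannot be told apart either. P0 wild-type sample 1 (mean r of 0.946 with its own group) and P21 tumor sample 1 (0.949) resembled their groups least, and where leaving out either ended a call of the 10 genes or a pathway gene named below, that is stated. The CP epithelial markers Ttr, Otx2, Aqp1, Kl, Clic6, Folr1, Trpm3, Lmx1a and Msx1 were detected on every array, which matches the labelled tissue.

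All levels below are log2 values of background-corrected, quantile-normalized signal for a gene's brightest probe. Differences are on the same log2 scale with their SE, n was 3 per group, and adjusted p-values come from limma with Benjamini-Hochberg adjustment over 12379 genes, with a threshold of 0.05. Because the tissue is bulk, a lower proportion of a cell type and less RNA per cell cannot be told apart in any of these values.

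At P0, 5 of the 10 genes were higher in tumors and 0 were lower: E2f1, E2f2, Ccnd1, Ccne1 and Ccne2. Over all genes tested, 5.0% were called higher and 6.28% lower at P0. The median difference of the 10 genes was 0.84, against -0.06 over all genes, and 9 of the 10 differences were positive. At an unadjusted limma p under 0.05, 7 were higher and 0 lower. No share of all genes at that looser cut is given, here or for the unadjusted counts below. Tumor levels lay wholly above wild-type levels for 5 of the 10 and wholly below for 1, against 10.4% and 14.4% of all genes. At P21, 0 were higher and 1, E2f1, was lower, against 10.5% of all genes called higher and 7.44% called lower, and the counts at an unadjusted limma p under 0.05 were also 0 and 1. The median of the 10 at P21 was -0.01, against -0.05 over all genes. At P21 the calls over all genes were 58.5% higher, and 73.5% higher when arrays were scaled to a common median in place of quantile normalization.

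**Figure D1:**
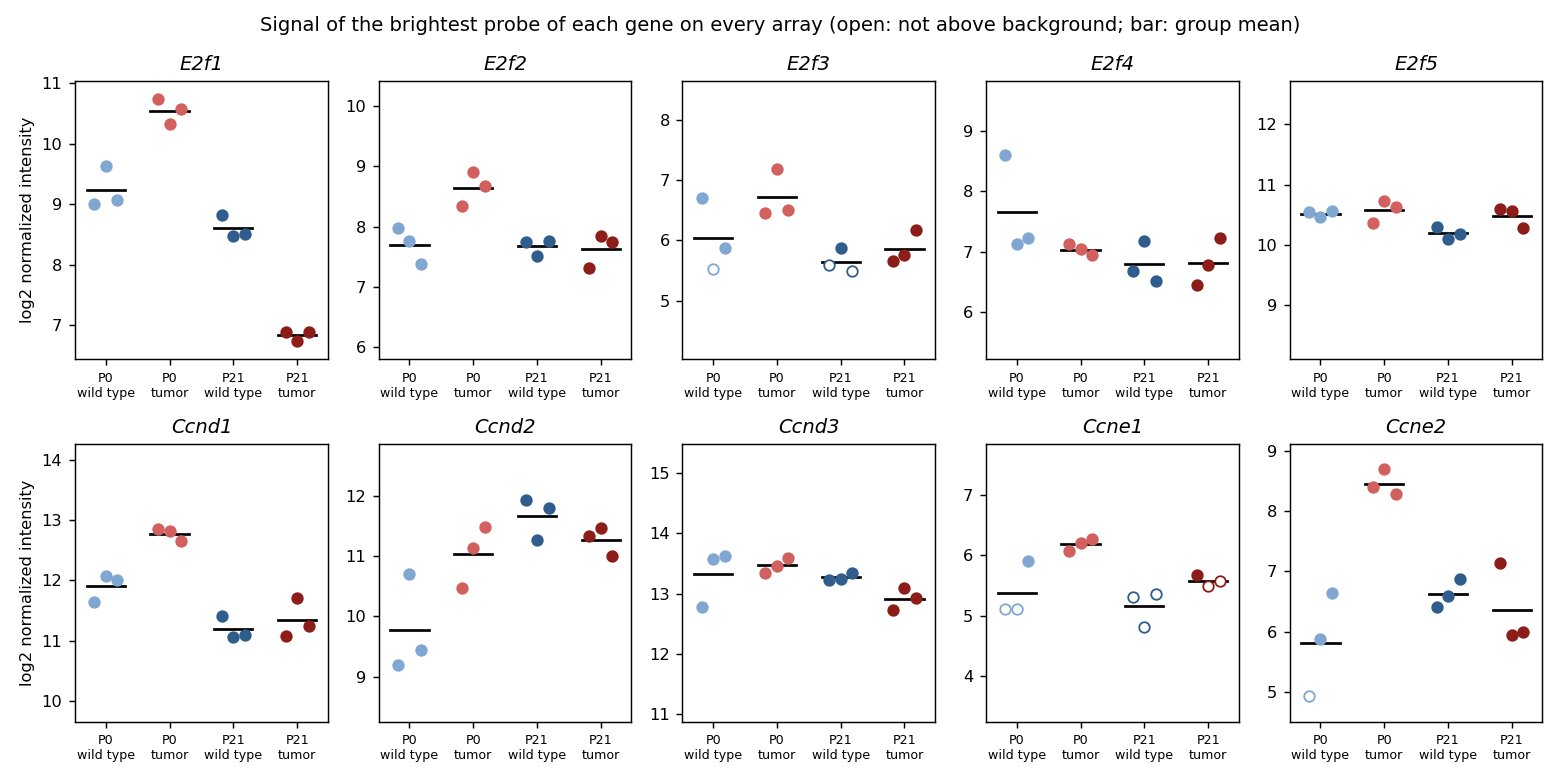
Level of each gene on every array as log2 normalized intensity (y axis) in the 4 groups (x axis), with a point for each array (open where not above background) and a line for the group mean. E2f1 and Ccne2 stood highest in the 3 P0 tumor samples, and E2f1 stood lowest in the 3 P21 tumor samples.

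The activating E2F E2f1 moved in opposite directions at the 2 ages. Its levels were 10.73, 10.32 and 10.58 in P0 tumors and 9.01, 9.63 and 9.08 in P0 wild-type CP. All P0 tumors lay above all P0 wild-type samples, and the difference was 1.31 ± 0.21 (2.47-fold, adjusted p = 0.00187, limma). At P21 the levels were 6.89, 6.74 and 6.88 in tumors and 8.82, 8.47 and 8.51 in wild-type CP. Here every tumor lay below every wild-type sample, with a difference of -1.76 ± 0.21 (3.40-fold lower, adjusted p = 9.3e-05, limma). The tumor effect at P21 minus that at P0 was -3.07 ± 0.30 (adjusted p = 0.000182, limma), with 1.30% of all genes called lower in this interaction and 3.13% called higher. Under the alternatives the E2f1 interaction ranged from -3.27 to -2.25 and passed in 20 of 20. Without P0 wild-type sample 1 the P0 difference was 1.19 (adjusted p = 0.00657, limma), and without P21 tumor sample 1 the P21 difference was -1.79 (adjusted p = 0.000338, limma). With no background correction, which leaves a constant background in every value, the P21 difference was -1.10 (adjusted p = 0.000475, limma), and with the authors' values it was -1.16 (adjusted p = 0.000293, limma). E2f1 has 1 probe on the array, and it was detected on all 12 arrays.

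E2f2, an activator with a role close to that of E2f1, was higher in P0 tumors. Levels were 8.33, 8.91 and 8.68 in P0 tumors against 7.98, 7.75 and 7.38 in P0 wild-type CP, and the groups did not overlap. The difference was 0.94 ± 0.23 (1.92-fold, adjusted p = 0.0199, limma). It no longer passed without P0 tumor sample 3 (adjusted p = 0.0695, limma), without P0 wild-type sample 3 (adjusted p = 0.0791, limma) or with the P0 arrays fitted alone (adjusted p = 0.0978, limma). At P21 tumors had 7.31, 7.84 and 7.74 and wild-type CP 7.74, 7.52 and 7.77, an overlap that left a difference of -0.05 ± 0.23 (95% interval -0.54 to 0.45). The change of the E2f2 effect between ages did not pass (-0.98 ± 0.32, adjusted p = 0.12, limma). E2f2 probe 2 gave 0.99 ± 0.22 at P0 (probe-level adjusted p = 0.0142, limma), and probe 3 was detected on 0 arrays.

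E2f3, the remaining activator, did not pass at either age. Its brightest probe was detected on 3 P0 tumor, 2 P0 wild-type, 3 P21 tumor and 1 P21 wild-type arrays. Levels were 6.46, 7.19 and 6.51 in P0 tumors and 6.70, 5.53 and 5.88 in P0 wild-type CP, and wild-type sample 1 lay among the tumors. The difference was 0.68 ± 0.30 (adjusted p = 0.181, limma), and 1.02 (adjusted p = 0.0357, limma) without that sample. At P21 tumors had 5.66, 5.76 and 6.17 and wild-type CP 5.59, 5.87 and 5.49, a difference of 0.22 ± 0.30 that did not pass (adjusted p = 0.696, limma).

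The repressor-class factors E2f4 and E2f5 did not pass in any tumor comparison. E2f4 levels were 7.13, 7.05 and 6.94 in P0 tumors and 8.60, 7.13 and 7.23 in P0 wild-type CP. Tumors lay just below wild-type samples without overlap, and wild-type sample 1 stood well above the other 5 arrays. The E2f4 difference was -0.61 ± 0.36 (adjusted p = 0.316, limma), and -0.14 (adjusted p = 0.813, limma) without that sample. At P21 tumors (6.45, 6.77 and 7.23) and wild-type CP (6.67, 7.18 and 6.52) overlapped, with a difference of 0.03 ± 0.36. E2f5, the factor whose loss in mice gives hydrocephalus, ranged from 10.10 to 10.72 over all arrays. Its differences were 0.05 ± 0.17 at P0 (95% interval -0.32 to 0.43) and 0.28 ± 0.17 at P21 (95% interval -0.09 to 0.66). E2f5 probe 2 was detected on 0 arrays.

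Among the D cyclins, the partners of Cdk4 and Cdk6, Ccnd1 passed at P0. Ccnd1 levels were 12.86, 12.81 and 12.65 in P0 tumors and 11.64, 12.08 and 12.01 in P0 wild-type CP. All tumors lay above all wild-type samples, by 0.87 ± 0.21 (1.82-fold, adjusted p = 0.0206, limma). The call was lost without P0 tumor sample 1 (adjusted p = 0.0626, limma), without P0 wild-type sample 1 (adjusted p = 0.0632, limma) and with the P0 arrays fitted alone (adjusted p = 0.0881, limma). At P21 tumors had 11.08, 11.70 and 11.24 and wild-type CP 11.42, 11.07 and 11.09, so the groups overlapped. The P21 difference was 0.15 ± 0.21 (95% interval -0.31 to 0.61), and the interaction did not pass (-0.71 ± 0.30, adjusted p = 0.24, limma).

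Ccnd2 stood close to the threshold at P0. Tumors had 10.47, 11.14 and 11.48 and wild-type CP 9.19, 10.70 and 9.45, with wild-type sample 2 inside the tumor range. The difference was 1.25 ± 0.38 (2.37-fold, adjusted p = 0.0524, limma), and it passed with the replicate number as a block (adjusted p = 0.0366, limma). Without P0 wild-type sample 2 it was 1.71 (adjusted p = 0.00615, limma). The call also passed in 5 other of 21 alternatives, among them the authors' normalized values (adjusted p = 0.0472, limma). At P21 tumors had 11.33, 11.46 and 11.00 and wild-type CP 11.92, 11.27 and 11.79, and the difference was -0.40 ± 0.38 (adjusted p = 0.542, limma). Ccnd2 probe 3 read 8.23, 8.59 and 8.22 in P0 tumors against 7.28, 7.45 and 6.75 in wild-type CP, without overlap (1.19 ± 0.25, probe-level adjusted p = 0.0104, limma).

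Ccnd3 did not pass at either age. P0 tumors had 13.35, 13.46 and 13.59 and P0 wild-type CP 12.77, 13.58 and 13.63, so the ranges overlapped and the difference was 0.14 ± 0.23 (adjusted p = 0.76, limma). At P21 tumors (12.73, 13.09 and 12.93) lay below wild-type CP (13.22, 13.25 and 13.34) without overlap, as did 23.9% of all genes. That difference was -0.35 ± 0.23 and did not pass (adjusted p = 0.349, limma).

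Of the E cyclins, the partners of Cdk2, Ccne2 had the largest P0 difference of the 10 genes. Levels were 8.39, 8.69 and 8.28 in P0 tumors and 4.94, 5.88 and 6.64 in P0 wild-type CP, with every tumor above every wild-type sample and sample 1 lowest. Ccne2 was not detected in P0 wild-type sample 1. The lowest detected signals on the arrays of P0 wild-type samples 2 and 3 were 5.62 and 5.73. The difference was 2.63 ± 0.40 (6.20-fold, adjusted p = 0.00135, limma), and 2.19 (adjusted p = 0.00307, limma) without P0 wild-type sample 1. That fold is set against wild-type levels at or near background. At P21 tumors had 7.15, 5.95 and 6.00, of which samples 2 and 3 lay near the lowest detected signal of 5.61 on their arrays. Wild-type CP had 6.42, 6.60 and 6.87, so the groups overlapped, with sample 1 the highest tumor. The P21 difference was -0.26 ± 0.40 (95% interval -1.14 to 0.61) and -0.65 (adjusted p = 0.319, limma) without that sample. The interaction was -2.90 ± 0.57 (adjusted p = 0.0127, limma), and -3.29 (adjusted p = 0.00387, limma) without P21 tumor sample 1. The size of the Ccne2 differences depended on the background correction. With none, the P0 difference was 1.40 (adjusted p = 0.000673, limma) and the interaction -1.50 (adjusted p = 0.00835, limma), and with the authors' values they were 1.55 and -1.67, and all of these passed.

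Ccne1 passed at P0 close to the threshold. It was detected on 3 P0 tumor, 1 P0 wild-type, 1 P21 tumor and 0 P21 wild-type arrays. P0 tumors had 6.07, 6.21 and 6.27 and P0 wild-type CP 5.11, 5.12 and 5.90, without overlap. The difference was 0.81 ± 0.24 (1.75-fold, adjusted p = 0.0461, limma), and 10 arrays each ended the call when left out (adjusted p from 0.0509 to 0.139, limma), P0 wild-type sample 1 and P21 tumor sample 1 among them. With no background correction it was 0.30 (adjusted p = 0.143, limma), with the authors' values 0.37 (adjusted p = 0.102, limma), and with the P0 arrays alone the adjusted p was 0.165 (limma). At P21 tumors (5.67, 5.50 and 5.57) lay above wild-type CP (5.31, 4.82 and 5.36), as did 21.1% of all genes, but 5 of these 6 values were not above background, so no fold is given, and the comparison did not pass (adjusted p = 0.274, limma).

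**Figure D2:**
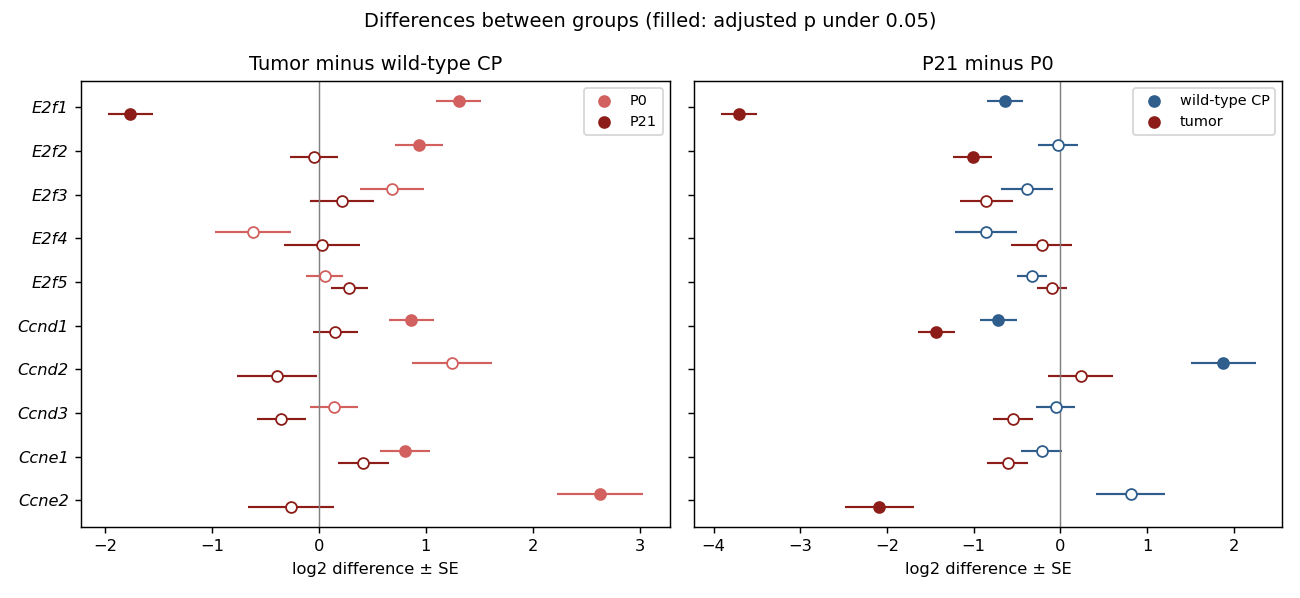
Tumor minus wild-type difference (left, x axis, log2 units, bars SE) for each of the 10 genes (y axis) at P0 and P21, and P21 minus P0 difference (right) in wild-type CP and tumors; filled points passed. The E2f1 points lie on opposite sides of 0, at 1.31 for P0 and -1.76 for P21, and the Ccnd2 point for age lies at 1.88 in wild-type CP.

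Probes of a gene were also tested separately, over 20021 probes. Of the 17 probes of these genes, 7 were higher and 0 lower at P0, where 4.13% and 5.01% of all probes were called. At P21, 0 were higher and 1 was lower, against 8.36% and 6.37% of all probes, and in the interaction 0 were higher and 2 lower, against 2.08% and 1.07%. From P0 to P21, 3 probes were higher and 2 lower in wild-type CP, against 7.47% and 9.84% of all probes. In tumors 0 were higher and 8 lower, against 8.34% and 8.14%. Ccnd1 probe 2 gave 0.73 ± 0.17 at P0 (probe-level adjusted p = 0.0216, limma), beside 0.87 for probe 1. Ccnd1 probe 3 gave 1.56 ± 0.47 (probe-level adjusted p = 0.0572, limma), with P0 wild-type sample 1 at 6.78 and the other wild-type samples at 9.32 and 8.49. Ccnd3 probe 2 likewise read 4.89 in P0 wild-type sample 1, where it was not detected, against 9.18 and 8.49 in the others (1.56 ± 0.81, probe-level adjusted p = 0.271, limma). E2f3 probe 2 gave 0.78 ± 0.27 at P0 (probe-level adjusted p = 0.0924, limma) and -0.32 at P21.

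**Figure D3:**
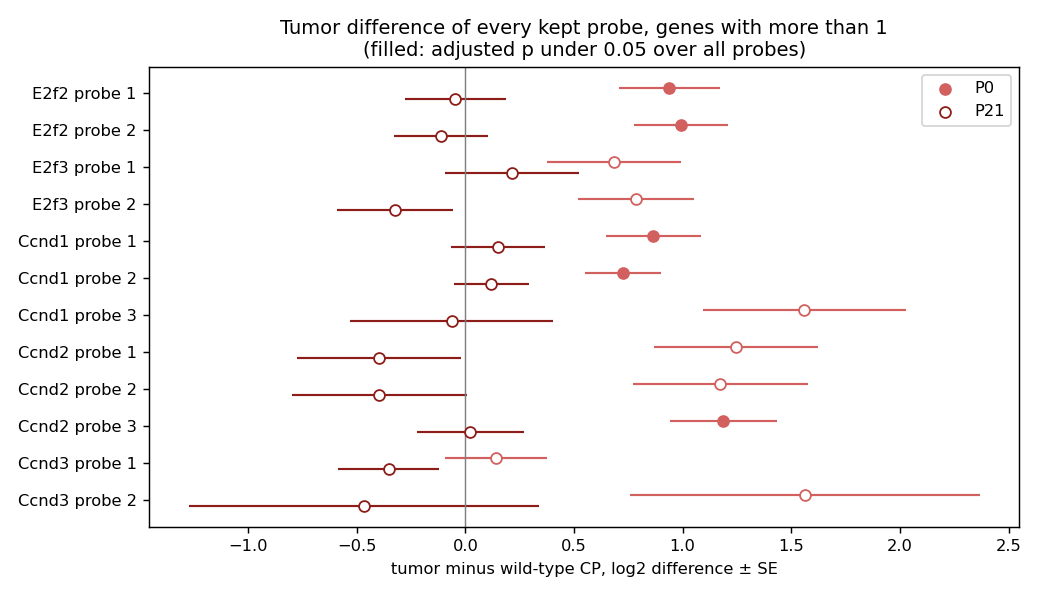
Tumor minus wild-type difference (x axis, log2 units, bars SE) at P0 and P21 of each detected probe (y axis) of the genes with more than 1; filled points passed over all probes. Both E2f2 probes lie right of 0 at P0 (0.94 and 0.99) and near 0 at P21, and the widest bar belongs to Ccnd3 probe 2 (1.56 ± 0.81).

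From P0 to P21, wild-type CP had 1 of the 10 genes higher and 2 lower, against 7.38% and 13.0% of all genes, and the median of the 10 was -0.27 against -0.05 over all genes. The 2 ages of wild-type CP did not overlap for 1 gene that was higher and 3 that were lower at P21, against 17.4% and 24.8% of all genes. Tumors had 0 higher and 4 lower, against 9.94% and 10.3% of all genes, and the median was -0.73 against -0.03. The 2 ages of tumors did not overlap for 0 genes that were higher and 7 that were lower, against 17.2% and 19.5% of all genes. With median scaling the share of higher calls among all genes in tumors with age was 62.9%, against 49.2%.

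E2f1 fell with age by 3.71 ± 0.21 on the log2 scale in tumors (13.1-fold lower, adjusted p = 4.19e-07, limma), with no overlap between ages. Under the alternatives E2f1 differed by -3.82 to -2.75 in tumors, and it passed in 20 of 20. In wild-type CP it fell by 0.64 ± 0.21 (1.56-fold lower, adjusted p = 0.0494, limma), a call that 10 arrays each ended when left out (adjusted p from 0.0525 to 0.159, limma), P21 tumor sample 1 among them, and that cyclic loess, median scaling and the wild-type arrays fitted alone also ended. Ccne2 fell by 2.09 ± 0.40 in tumors (4.25-fold lower, adjusted p = 0.00292, limma; a difference of -1.18 with no background correction and -1.28 with the authors' values, both of which passed) and differed by 0.81 ± 0.40 in wild-type CP (adjusted p = 0.183, limma). Ccnd1 fell by 1.43 ± 0.21 in tumors (2.70-fold lower, adjusted p = 0.000452, limma). In wild-type CP it fell by 0.72 ± 0.21 (1.64-fold lower, adjusted p = 0.0315, limma), which did not pass without P0 wild-type sample 2 or 3 or P21 wild-type sample 2 or 3 (adjusted p from 0.0847 to 0.112, limma) or with the mean of its probes (-0.45, adjusted p = 0.234, limma). E2f2 fell by 1.01 ± 0.23 in tumors (2.02-fold lower, adjusted p = 0.00758, limma) and gave -0.03 in wild-type CP (adjusted p = 0.945, limma). E2f3 differed with age in tumors by -0.86 ± 0.30 (adjusted p = 0.0665, limma), and its probe 2 passed (-1.01 ± 0.27, probe-level adjusted p = 0.0217, limma).

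Ccnd2 was the gene that rose with age. In wild-type CP it rose by 1.88 ± 0.38 (3.67-fold, adjusted p = 0.00402, limma), and the call held in each of 20 alternatives. In tumors its difference with age was 0.23 ± 0.38 (adjusted p = 0.72, limma). The tumor effects of Ccnd2 at the 2 ages had opposite signs, but the interaction did not pass (-1.64 ± 0.53, adjusted p = 0.115, limma). It passed without P0 wild-type sample 2 (-2.10, adjusted p = 0.0187, limma).

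The order of the group means differed between genes. E2f1 ran from P0 tumors (10.54 ± 0.21, SD, n = 3) through P0 wild-type CP (9.24 ± 0.34) and P21 wild-type CP (8.60 ± 0.19) to P21 tumors (6.84 ± 0.08), and the step between the wild-type groups passed in 7 of 20 alternatives. Ccnd1 ran from P0 tumors (12.77 ± 0.11) through P0 wild-type CP (11.91 ± 0.24) to P21 tumors (11.34 ± 0.32) and P21 wild-type CP (11.19 ± 0.20), of which the P21 groups did not differ beyond their spread. For E2f2 the P0 tumors stood highest (8.64 ± 0.29), and the other groups lay at 7.70 ± 0.31, 7.63 ± 0.28 and 7.67 ± 0.14. Ccnd2 had a single low group, P0 wild-type CP (9.78 ± 0.81), with P0 tumors at 11.03 ± 0.51, P21 tumors at 11.26 ± 0.24 and P21 wild-type CP at 11.66 ± 0.35.

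The genes most alike in level to those that passed were picked by Pearson r over the 12 arrays, which fall into the same 4 groups, so r is a description with no test. Nearest to E2f1 were Gtse1 (0.974), Chaf1a (0.964) and Pprc1 (0.953). Nearest to Ccnd1 were Sec61a1 (0.979), Chaf1b (0.975) and Kif2c (0.974). Nearest to E2f2 were Avpr1a (0.946), Chek1 (0.935) and Erfe (0.930), nearest to Ccne1 were Fanci (0.915), Zc3hc1 (0.913) and Cdc42ep2 (0.913), and nearest to Ccne2 were Trp53rka (0.920), Nup155 (0.916) and Utp25 (0.914).

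The rest of the pathway was described by 73 genes in 9 lists, of which 56 were tested. At P0, 23 were higher and 4 lower (median 0.57), against 5.0% and 6.28% of all genes. At P21 8 were higher and 7 lower (median 0.08), against 10.5% and 7.44% of all genes, so these counts lay nearer to the background. In the interaction 1 was higher and 10 were lower (median -0.43), against 3.13% and 1.30%. With age 2 were higher and 18 lower in wild-type CP (median -0.38), against 7.38% and 13.0%, and 3 were higher and 32 lower in tumors (median -1.02), against 9.94% and 10.3%. The lists were chosen with results of these data known.

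Cdk2, the E cyclin kinase, was 0.59 ± 0.16 higher at P0 (adjusted p = 0.0371, limma; 0.0741 with the replicate number as a block) and 0.51 higher at P21 (adjusted p = 0.0491, limma), and these calls passed in 7 and 9 of 21 alternatives. The P0 call was lost without P0 wild-type sample 1 and the P21 call without P21 tumor sample 1. Of the D cyclin kinases, Cdk4 differed by 0.86 ± 0.26 at P0 (adjusted p = 0.0547, limma; 0.0317 with the block) and by 0.26 at P21 (adjusted p = 0.575, limma). Cdk6 differed by 0.46 ± 0.31 at P0 (adjusted p = 0.394, limma). At P21 it was below background on every wild-type array, tumors were at least 1.19-fold above, and the comparison did not pass (adjusted p = 0.0856, limma). It passed with the P21 arrays fitted alone (adjusted p = 0.00759, limma), with the block (adjusted p = 0.0157, limma) and without P0 tumor sample 1 (adjusted p = 0.0257, limma). Cdc25a, the phosphatase that activates Cdk2, was 1.11 ± 0.24 higher at P0 (adjusted p = 0.0112, limma), and without P0 tumor sample 3 its adjusted p was 0.0533 (limma). Averaging its probes gave 0.39 (adjusted p = 0.238, limma), which did not pass, and with no background correction 0.68, which passed. In the kinase list 2 of 7 genes tested were higher at P0 (5.0% of all genes) and 1 at P21 (10.5% of all genes, near the list's share), with 0 lower at either age.

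Among the pocket proteins and dimer partners, Rb1, the retinoblastoma gene itself, differed by -0.01 at P0 (adjusted p = 0.987, limma) and was 0.84 ± 0.22 higher at P21 (adjusted p = 0.0208, limma). That P21 call was lost when P21 tumor sample 1 or any P21 wild-type sample was left out (adjusted p from 0.0532 to 0.0834, limma). Rbl1, the pocket protein that itself rises in cycling cells, was 0.93 ± 0.26 higher at P0 (adjusted p = 0.0379, limma; 0.0757 with the block). At P21 it was 0.89 ± 0.26 higher (adjusted p = 0.0318, limma), and 8 arrays at P0 and 5 at P21 ended the call when left out. The P21 call was also lost with no background correction (0.42, adjusted p = 0.137, limma), with the authors' values (0.48, adjusted p = 0.095, limma) and with the block (adjusted p = 0.0663, limma). Rbl2 did not pass (-0.07 and -0.35), nor did Tfdp1, the main E2F dimer partner (0.55 ± 0.19 at P0 and -0.12 at P21). Tfdp2, the second dimer partner, was lower at both ages, with a difference of -0.71 ± 0.19 at P0 (adjusted p = 0.0303, limma) and -1.06 ± 0.19 at P21 (adjusted p = 0.00178, limma). The P21 call of Tfdp2 held in all 21 alternatives, and the P0 call was lost when any of 5 arrays, P0 wild-type sample 1 among them, was left out (adjusted p from 0.0501 to 0.127, limma).

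The genes that E2F factors are known to switch on in S phase made up most of the pathway genes that rose at P0. Of 17 tested, 15 were higher and 0 lower, against 5.0% and 6.28% of all genes, with a median of 1.77. Mcm5, a subunit of the replicative helicase, was 3.30 ± 0.23 higher (adjusted p = 4.19e-06, limma), and Tk1, the thymidine kinase, was 3.22 ± 0.40 higher (adjusted p = 0.000306, limma). Mcm3 was 2.46 ± 0.42 higher (adjusted p = 0.0028, limma), but it was detected on 2 of 3 P0 wild-type arrays, with an SD of 1.09 there. Its difference was as low as 1.73 under the alternatives, and it passed in 20 of 20. Uhrf1, which reads hemimethylated DNA at replication forks, was 2.30 ± 0.20 higher (adjusted p = 2.72e-05, limma). At P21, 4 were higher and 1 lower with a median of 0.26, against 10.5% and 7.44% of all genes. Cdt1, a licensing factor, was 1.25 ± 0.22 higher (adjusted p = 0.00177, limma) and Mcm5 1.11 ± 0.23 (adjusted p = 0.00463, limma). Tk1 was at least 1.83-fold higher, since it was below background on every P21 wild-type array (adjusted p = 0.043, limma), but 7 arrays each ended that call. With no background correction the Tk1 difference was 0.50 (adjusted p = 0.316, limma) and with the authors' values 0.61 (adjusted p = 0.212, limma), so the call was lost and the fold was below that bound. Mcm4 was 0.77 ± 0.20 higher at P21 (adjusted p = 0.019, limma), a call lost without any of 4 arrays, and Pcna, the sliding clamp, was lower (-1.09 ± 0.21, adjusted p = 0.00345, limma, and -0.51 with no background correction, which passed).

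The S phase list differed from E2f1 in sign at P21, where the E2f1 difference was -1.76 and the list's median 0.26. In the interaction 8 of the 17 were lower and 0 higher, against 1.30% and 3.13% of all genes, with a median of -1.54. Among these 8 the largest differences were those of Cdc6 (-2.31, adjusted p = 0.00715, limma), Mcm5 (-2.19, adjusted p = 0.00271, limma), Tyms (-2.18, adjusted p = 0.0302, limma) and Uhrf1 (-2.18, adjusted p = 0.00144, limma). Of these 8, the Tyms call was lost without any of 9 arrays, P0 wild-type sample 1 and P21 tumor sample 1 among them (adjusted p from 0.053 to 0.0885, limma), and was -1.20 with the mean of its probes. The Rrm2 call was lost without any of 4 arrays (adjusted p from 0.0594 to 0.0665, limma), and the Mcm7 call without P21 tumor sample 2 (adjusted p = 0.056, limma) or with median scaling (adjusted p = 0.0627, limma). Cdc6 passed at -1.43 and Cdc45 at -1.11 with no background correction. With age 9 of the 17 were lower in wild-type CP (median -0.85), against 13.0% of all genes. In tumors 16 were lower (median -2.31), against 10.3% of all genes.

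Mybl2, an E2F target whose product drives later cell cycle genes, moved in opposite directions at the 2 ages, as E2f1 did. It was 1.24 ± 0.20 higher at P0 (adjusted p = 0.00215, limma) and lower at P21 (-0.78 ± 0.20, adjusted p = 0.018, limma), with an interaction of -2.01 ± 0.29 (adjusted p = 0.00231, limma). Its P21 call was lost with median scaling (-0.45, adjusted p = 0.156, limma), with cyclic loess (adjusted p = 0.0508, limma) and when any of 4 arrays, P21 tumor sample 1 among them, was left out (adjusted p from 0.054 to 0.0863, limma), and it passed at -0.49 with no background correction. Foxm1, which drives mitotic genes, was 1.17 ± 0.22 higher at P0 (adjusted p = 0.0057, limma), and 0.73 with no background correction, which passed. Cdk1, the mitotic kinase, was 1.09 ± 0.32 higher at P0 (adjusted p = 0.0462, limma; 0.0647 with the block), a call that 10 arrays each ended. Without P0 wild-type sample 1 it was 0.83 (adjusted p = 0.148, limma). Of the repressors E2f7 and E2f8, neither was detected on enough arrays, nor were the cyclins Ccna2 and Ccnb2. Of the 9 genes of G1 cyclin turnover 0 passed in limma at either age (medians 0.02 and -0.08). At an unadjusted limma p under 0.05 there was 1 higher and 1 lower at each age, with no share of all genes given at that cut.

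In the MYC family list, which also holds MYC antagonists, Mycl was 1.13 ± 0.17 higher at P0 (adjusted p = 0.0011, limma) and 2.14 ± 0.17 higher at P21 (adjusted p = 3.12e-06, limma). It was the gene that was higher in the interaction (1.02, adjusted p = 0.0292, limma). That call was lost with no background correction (0.41, adjusted p = 0.188, limma), with the authors' values (0.47, adjusted p = 0.161, limma), with the block (adjusted p = 0.0677, limma) and without any of 7 arrays, P21 tumor sample 1 among them (adjusted p from 0.0545 to 0.0869, limma). Mxd3, a MYC antagonist gene, was at least 1.43-fold higher at P0, being below background on every P0 wild-type array (adjusted p = 0.00336, limma), and the difference was 0.80 with no background correction, which passed. Myc was detected on 1 array and Mycn on 0.

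Some genes that act with E2f4 and E2f5 in multiciliated cells were lower in tumors, while E2f4 and E2f5 did not pass. Of 7 tested, 3 were lower at P0 and 4 at P21, with 0 higher and medians of -0.65 and -0.70, against 6.28% and 7.44% of all genes called lower. Apart from Gmnc at P21 and Ccno at P0, each of these calls was lost under some alternative. Gmnc, the geminin relative that binds these E2Fs, was lower at P21 (-2.73 ± 0.40, adjusted p = 0.000479, limma, and -1.59 with no background correction, which passed). Gmnc was also called lower in the interaction (-2.30), a call that passed in 10 of 20 alternatives, with differences from -2.65 to -1.09. Leaving out any of 8 arrays, P21 tumor sample 1 among them, ended that call (adjusted p from 0.0532 to 0.115, limma). Ccno, a cyclin-like gene of centriole amplification, was lower at P0 (-1.06 ± 0.21, adjusted p = 0.00637, limma) and at P21 (-0.70 ± 0.21, adjusted p = 0.0342, limma), where 5 arrays each ended the call, P21 tumor sample 1 among them. Mcidas, the other geminin relative, was lower at P0 (-0.87 ± 0.24, adjusted p = 0.0367, limma), and 8 arrays each ended that call. Without P0 wild-type sample 1 it was -0.71 (adjusted p = 0.11, limma). Trp73 was at least 1.86-fold lower at P0 (adjusted p = 0.0161, limma) and at least 2.07-fold lower at P21 (adjusted p = 0.0119, limma), being below background in all tumors. The Trp73 call was lost without any of 3 arrays at P0 and without P21 wild-type sample 2 at P21 (adjusted p from 0.0546 to 0.062, limma). With no background correction it was -0.55 at P0, below that bound, and did not pass (adjusted p = 0.0509, limma), and -0.52 at P21, also below the bound, which passed (adjusted p = 0.047, limma). Foxj1, the master regulator of motile cilia, was lower at P21 (-1.02 ± 0.29, adjusted p = 0.0271, limma), and 4 arrays each ended that call, P21 tumor sample 1 among them (adjusted p = 0.0765, limma).

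Other settings ended several pathway calls. Median scaling ended the P21 calls of Foxj1 (-0.70) and Ccno (-0.43) and the P0 calls of Mcidas, Cdk1 and Cdk2. Cyclic loess ended those of Mcidas at P0 and of Ccno and Foxj1 at P21. No background correction ended the calls of Mcidas at P0 (-0.42, adjusted p = 0.0567, limma) and of Foxj1 (-0.57, adjusted p = 0.0554, limma) and Ccno (-0.33, adjusted p = 0.106, limma) at P21, and the authors' values ended those of Mcidas (-0.48) and Ccno (-0.38). Without the detection filter Cdk1 at P0 and Tk1 at P21 did not pass. With the P0 arrays fitted alone, the P0 calls of Cdc25a, Cdk1, Cdk2, Mcidas, Rbl1 and Tfdp2 did not pass, and with the mean of a gene's probes the calls of Cdc25a at P0, Rbl1 at both ages, and Cdk2 and Tk1 at P21 did not pass.

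**Figure D4:**
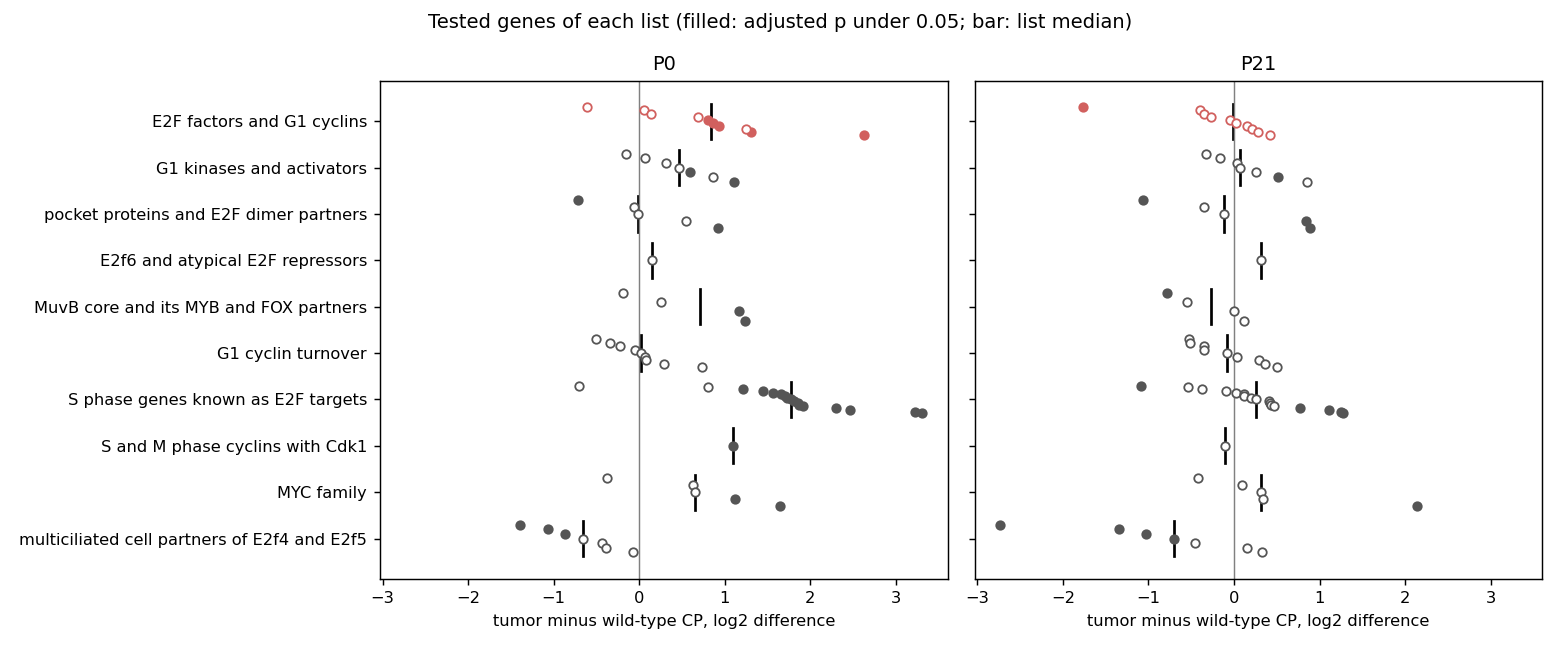
Tumor minus wild-type difference (x axis, log2 units) of each tested pathway gene (points, filled where they passed) and of the 10 genes by list (y axis) at P0 and P21, with a line at each median. The S phase list lies furthest right at P0 (median 1.77) and close to 0 at P21 (median 0.26).

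Markers of other cells moved with these comparisons. Summed signal of 9 of 12 CP epithelial markers was 181873 to 222652 in P0 tumors and 204676 to 268145 in P0 wild-type CP, and 206007 to 223123 against 262235 to 267339 at P21. Of these 9, 0 were higher and 1 (Aqp1) lower at P0, against 5.0% and 6.28% of all genes. At P21, 0 were higher and 2 (Aqp1 and Folr1) lower, against 10.5% and 7.44%. Their median difference was -0.05 at P0 and -0.11 at P21, against -0.06 and -0.05 over all genes. Summed signal of 6 of 7 neural progenitor and astrocyte markers was 7467 to 11411 in P0 tumors and 3121 to 3664 in P0 wild-type CP, and 17208 to 39891 in P21 tumors against 1983 to 2429 in P21 wild-type CP. Of these 6 markers 3 were called higher at P0 and 4 at P21, against 5.0% and 10.5% of all genes. At both ages 0 were called lower, against 6.28% and 7.44%. Summed signal of 5 of 8 multiciliated cell markers, Foxj1 among them, was 10244 to 12748 in P0 tumors and 16465 to 22148 in P0 wild-type CP, and 12414 to 15507 against 19751 to 24471 at P21. Summed signal of 5 of 6 macrophage markers was 4141 to 4731 against 2677 to 3522 at P0, and 3145 to 4835 against 1430 to 1512 at P21. Neuron markers (4 of 6 genes) summed to 29782 in P21 tumor sample 1 and to 2825 and 2173 in the other P21 tumors. Granule neuron lineage markers (3 of 7 genes) summed to 30198 in that sample and to 4241 and 3939 in the others. Of the markers outside that sum, Atoh1 and Pax6 were detected on 0 arrays. Neurod1 and Gabra6 were each detected on 1 P21 tumor array and on 0 arrays of the other groups. The P21 values of E2f1 and Ccne2 without P21 tumor sample 1 stand above. Oligodendrocyte lineage markers (4 of 6 genes) summed to 6962 in that sample and to 2390 and 2266 in the others, against 2207 to 2492 in P21 wild-type CP. Summed signal of 6 fibroblast and meninges markers was 17972 to 18916 in P0 tumors and 22660 to 25374 in P0 wild-type CP, without overlap, and 19149 to 24633 against 21054 to 24432 at P21. Of these 6, 1 was higher and 1 lower at P0, against 5.0% and 6.28% of all genes. At P21 3 were higher and 1 lower, against 10.5% and 7.44%. Endothelial and erythroid markers gave 0 calls in either tumor comparison (limma). The part of these other cells in the differences was not tested.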

How the data were processed

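RNA of 12 pooled samples, 3 per group, was read on Illumina BeadChips. Trizol-extracted RNA was made into biotin-labelled cRNA, per the labels' protocols. The main table holds, per the file headers, an average bead intensity without normalization and a detection p-value for every probe and array. The authors' other deposited table gives normalized intensities on a linear scale. Its columns ranked probes as the scanner values of the same array did (Spearman 1), with medians of 153.0 to 153.1, and it served as an alternative. Neither its method nor the scanner software is named in the labels or headers.

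Background was corrected with normexp in limma 3.58.1 (R 4.3.3), using 936 control values per array inferred from the detection p-values and an offset of 16. Values were log2 transformed and quantile normalized. A probe was kept if detected (p under 0.05) on at least 3 arrays and named by 1 symbol (20021 probes). In the platform annotation 34885 probes had 1 symbol, 18 had several and 10378 were absent, and symbols were brought up to date with a RefSeq table of GRCm38.p6. A gene was read by its brightest probe, and 12379 genes were tested.

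The 12 arrays were fitted together in limma with a mean for each group (8 residual and 4.21 prior degrees of freedom). Tumor was set against wild-type CP within each age, and further comparisons were the change of that effect with age (interaction), and P21 against P0 in each tissue. The calculation was tested on simulated data. For a gene that no array of a group detected, a lower bound on the fold is given where it is above 1, set against the lowest detected signal of each array or the probe's own, whichever is higher.

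The genes named are all 10 members with every probe, up to 4 passing members of each pathway list per direction in each tumor comparison, 8 direct partners, and the 3 genes nearest in level to each member that passed. The members and lists were chosen with earlier results of these data known. Same-numbered tumor and wild-type samples deviated together at P0 (r = 0.425, 0.432 and 0.104) and not at P21 (r = -0.082, -0.028 and -0.139). The P0 pairing rests on the data alone, and its weakest r is close to that of some samples of different number (0.097). The block was an alternative, as were other background, scaling and filter settings, probe averaging, the authors' values, fits of the compared groups alone, and leaving out each array.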

Additional observations from a re-analysis of the deposited data

Results flagged for a closer look

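The tumor effect on 2 genes, E2f1 and Ccne2, differed between the ages in a test of the difference itself. For E2f1 the P21 effect minus the P0 effect was -3.07 on the log2 scale (adjusted p = 0.000182, limma), with tumors above wild-type CP in every P0 sample and below it in every P21 sample. For Ccne2 it was -2.90 (adjusted p = 0.0127, limma), with tumors above wild-type CP at P0 and overlapping it at P21. Age and BeadChip cannot be told apart in either value.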

How the results depend on the processing

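Over the 10 genes and 5 comparisons, 952 values under alternatives stayed on their side of the threshold, 37 no longer passed and 16 newly passed. No value that passed changed its sign under these alternatives, while some that did not pass did. With 3 arrays a group, precision was limited. E2f3 and Ccne1 lay near background, as did Ccne2 in P0 wild-type CP and in P21 tumor samples 2 and 3. Of the 10 genes, 2 were higher at P0 with only the P0 arrays fitted, in place of 5. With probes detected on all 12 arrays, 1 passed in the interaction, in place of 2. That filter kept 7 of the 10 genes and left out Ccne2, which was detected on 11 arrays and so was not tested there. Leaving out each array gave 3 to 5 genes passing at P0, 1 to 1 at P21, 2 to 3 in the interaction, 1 to 3 with age in wild-type CP and 4 to 6 with age in tumors. The lowest P0 count came without P0 tumor sample 3, and the lowest with age in wild-type CP without sample 2 or 3 of either wild-type group. A block for the replicate number gave 6 genes passing at P0, 1 at P21 and 2 in the interaction. Over all genes, 1397 passed at P0 and 561 with the P0 arrays alone. Without P0 tumor sample 3 that count was 766. The interaction count was 549, and 299 to 738 when an array was left out. Median scaling moved the P21 calls from 1300 higher and 921 lower to 1702 and 613, and those with age in tumors from 1230 and 1271 to 1586 and 937. It moved the median of all genes at P21 from -0.05 to 0.08. Why these counts moved was not tested.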
